A study of Mus musculus with 11 samples.

Results

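Interleukin 7 and interleukin 2 signal to T cells through receptors that share a chain and hand the signal to the JAK kinases and to STAT5. The 10 genes described here encode this route: the receptor chains Il7r, Il2ra, Il2rb and Il2rg, the kinases Jak1 and Jak3, the transcription factors Stat5a and Stat5b, and the feedback genes Cish and Socs2. They were chosen by name as known parts of the pathway, each symbol stood for 1 row of the deposited table, and they are 10 of its 37224 gene rows. All 10 had a combined count of at least 100, the minimum used for a comparison, which 13833 genes reached.

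The leukaemias were T cell acute lymphoblastic leukaemias (T-ALL) of mice on the C57/BL6 background, and RNA was sequenced from their blasts. Blood progenitors carrying the cKit receptor were infected with a retrovirus for Notch1-IC, the activated inner part of the Notch1 receptor, and injected into the veins of recipient mice; leukaemias of both genotypes therefore carry this transgene in addition to their own Notch1. Donors were Utx knockout (Utx-/Y, male) or Utx wild-type (Utx+/+ or Utx+/Y, either sex), Utx being an X-linked histone demethylase. There were 5 knockout samples (2 of bone marrow, 3 of spleen) and 6 wild-type samples (2 of bone marrow, 4 of spleen). Of all 11 samples 3 were repeat runs: 1 of knockout bone marrow, 1 of wild-type bone marrow and 1 of wild-type spleen. The labels used here state neither ages nor the strain of the recipients. The table holds 1 pooled count per gene and genotype, with 106445530 as the knockout total and 108015222 as the wild-type total, so no spread between animals can be computed, no test between genotypes was possible, and a pool does not show whether 1 tumour or all of them gave a gene's counts.

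The labels were first checked on the targeted gene. Kdm6a, the symbol of Utx, had 1115 counts in the knockout pool against 6299 in the wild-type one, on a row that stands for the gene as a whole; the labels used here do not say which part is deleted. The T cell receptor complex gene Cd3e stood at 436 CPM (counts per 1000000 of the pool's total) in the knockout pool against 446 CPM in the wild-type one, while its partners Cd3d and Cd3g had log2 ratios of knockout over wild-type of -0.34 and -0.28. Xist, which coats the silenced X in female cells, had 75 counts in the knockout pool against 21976 in the wild-type one, so sex differs between the pools along with genotype and the 2 cannot be told apart.

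The interleukin 7 receptor pairs the alpha chain Il7r with the shared gamma chain Il2rg; it is needed for the survival of early thymocytes and is known to be mutated in some human T-ALL. The interleukin 2 receptor joins Il2ra and Il2rb to the same gamma chain. Jak1 sits on Il7r or Il2rb and Jak3 on Il2rg, and when cytokine binds they phosphorylate STAT5, which enters the nucleus and switches on, among others, Cish and Socs2, whose proteins dampen the signal.

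Of the 10 genes, 6 were higher in the knockout pool, none was lower and 4 were neither. A gene is called higher or lower here where the scaled counts were at least 2-fold apart and the exact 95% Clopper-Pearson interval of the ratio, which covers counting error only, did not include equality. By the same rule 11.2% of all 13833 genes were higher and 5.36% were lower. The median log2 ratio of knockout over wild-type was 1.21 over the 10 genes and -0.07 over all genes. The higher genes were 3 of 4 receptor chains, neither of the kinases, 1 of the 2 STAT5 genes and both feedback genes. In a bulk sample, fewer cells of a type and less RNA per cell cannot be told apart, which holds for every ratio given here.

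**Figure D1:**
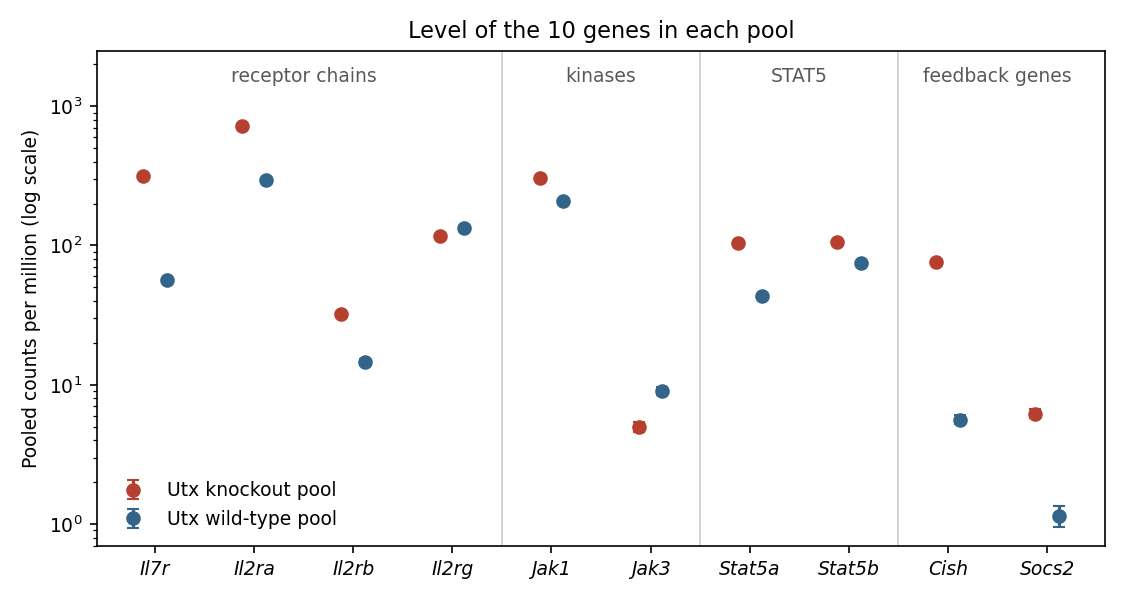
Pooled CPM of the 10 genes (log axis) in the Utx knockout pool (red) and the Utx wild-type pool (blue), 1 pooled value per genotype; bars are exact 95% Poisson intervals and cover counting error only, and most are smaller than the points. Cish has the widest gap, 75.6 against 5.63, while Il2rg and Jak3 are the genes with the lower point in the knockout pool.

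The cytokines themselves had few counts in either pool; interleukin 7 is known to come mainly from stromal cells. None of the 8 cytokine genes of the family reached 100 combined counts. Il7 had 7 counts in the knockout pool against 3 in the wild-type one, Il2 had 5 and 6, and Il9 had none in either. The highest were Il4, with 52 and 32 counts, and Tslp, a ligand that also signals through Il7r, with 29 and 8. Together the 8 genes came to 1.33 CPM in the knockout pool against 0.56 CPM in the wild-type one.

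Il7r was much higher in the knockout pool. Il7r (ENSMUSG00000003882, chromosome 15, 9505788 to 9530176 on the minus strand, in GRCm38 coordinates of GENCODE M21, as for the other genes below) had 33836 counts in the knockout pool against 6124 in the wild-type one, which is 318 CPM (exact Poisson interval 314 to 321) against 56.7 CPM (55.3 to 58.1). The log2 ratio was 2.49 (95% interval 2.45 to 2.53), a 5.61-fold difference, which ranked 358 from the top among the genes tested. Per kilobase of annotated exon its level passed 96.3% of the 13611 tested genes with an annotated length in the knockout pool against 75.3% in the wild-type one. Il7r thus was among the more abundant transcripts of the knockout pool and stood further down in the wild-type pool.

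The start region of Il7r holds a match to the letters that STAT5 dimers are known to bind, TTCNNNGAA, which read the same on both strands. Of the 10 genes 8 had a promoter window in the RefSeq table (GRCm38.p6; 250 bases before and 50 after an annotated start), and Il2rb and Socs2 had none there. Il7r and Cish had the motif and the other 6 did not, while 8.30% of all 32851 windows held at least 1 match. A match is a description of the letters and not a binding site. The stretch of Il7r, from the minus strand at chr15:9530000-9530029, has its match 142 bases before the RefSeq start. That start lies 300 bases inside the GENCODE gene, so the match is within the gene as GENCODE annotates it. Capitals mark the motif.
Il7r: agttcaggagcTTCAGGGAAtaccaagatg

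Both further chains of the interleukin 2 receptor were higher too, while the shared gamma chain was not. Il2ra, the CD25 antigen of early thymocytes and activated T cells (ENSMUSG00000026770, chromosome 2, 11642807 to 11693193, plus strand), had 76957 counts against 32113, or 723 CPM (718 to 728) against 297 CPM (294 to 301). Its log2 ratio was 1.28 (1.26 to 1.30), a 2.43-fold difference. Il2rb, the signalling chain shared with the interleukin 15 receptor (ENSMUSG00000068227, chromosome 15, 78479256 to 78495271, minus strand), had 3446 against 1573 counts, or 32.4 CPM against 14.6 CPM, a log2 ratio of 1.15 (1.07 to 1.24). These chains differed between the pools by nearly the same factor, so that per length Il2ra stood at 16.8 times Il2rb in the knockout pool against 15.3 times in the wild-type one.

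Il2rg, the gamma chain that the receptors for interleukins 2, 4, 7, 9, 15 and 21 share (ENSMUSG00000031304, chromosome X, 101264378 to 101268255, minus strand), had 12522 counts in the knockout pool against 14312 in the wild-type one. This is 118 CPM against 133 CPM, a log2 ratio of -0.17 (-0.21 to -0.14). It was the only receptor chain of the 4 with the lower value in the knockout pool. Il2rg lies wholly inside the annotated gene Gm20489 on the same strand, whose transcripts hold 27.5% of its 50-base stretches. Gm20489 had 4917 and 6220 counts of its own, a log2 ratio of -0.32 (-0.37 to -0.26). The sources used here do not say how shared reads were assigned, so the count of Il2rg is uncertain by an unknown amount. Over the 449 X-linked genes tested the median log2 ratio was -0.03.

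The balance of the receptor chains therefore differed between the pools, and ratios taken within a pool do not depend on how the pools are scaled. Per kilobase of exon, Il7r stood at 1.38 times the level of Il2rg (Clopper-Pearson interval 1.36 to 1.41) in the knockout pool against 0.219 times (0.213 to 0.226) in the wild-type one. Il2ra stood at 2.57 times Il2rg (2.52 to 2.62) in the knockout pool against 0.938 times (0.920 to 0.957) in the wild-type one. The partner chain was thus the most abundant of the 4 in the wild-type pool and stood behind Il2ra and Il7r in the knockout pool. Il7r stood at 0.538 times Il2ra in the knockout pool against 0.234 times in the wild-type one.

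**Figure D2:**
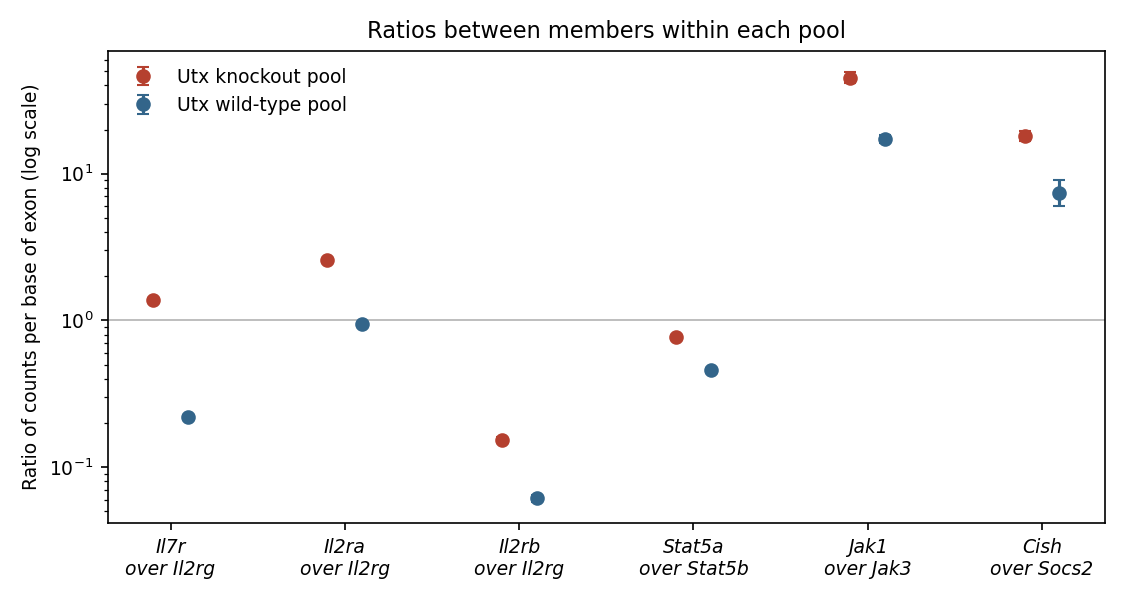
Ratio of the counts per base of annotated exon of 1 gene to those of another within a pool (log axis), for 6 pairs, knockout pool in red and wild-type pool in blue; bars are exact 95% Clopper-Pearson intervals for counting error. In each pair the gene with the higher log2 ratio of knockout over wild-type was put on top. That all 6 ratios are higher in the knockout pool follows from this order and is no finding. The widest gap is that of Il7r over Il2rg, at 1.38 against 0.219.

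Neither kinase gene reached the 2-fold minimum, and a difference from the receptor chains was not tested. Jak1, used by most cytokine receptors (ENSMUSG00000028530, chromosome 4, 101152367 to 101265282, minus strand), had 32286 against 22666 counts, or 303 CPM against 210 CPM. Its log2 ratio of 0.53 (0.51 to 0.56), a 1.45-fold difference, stayed under the 2-fold minimum. Jak3, the kinase of the gamma chain (ENSMUSG00000031805, chromosome 8, 71676296 to 71690575, plus strand), had 531 against 973 counts, or 4.99 CPM (4.57 to 5.43) against 9.01 CPM (8.45 to 9.59). With a log2 ratio of -0.85 (-1.01 to -0.70) it had the lowest ratio of the 10 genes, 55.4% of the wild-type level.

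Jak3 was also rare in both pools, with a level per length above only 21.7% of the genes tested in the knockout pool against 32.6% in the wild-type one. Its last part overlaps the gene Insl3 on the same strand over 1362 bases, and 7.21% of its 50-base stretches are found in transcripts of other genes. Insl3 had 56 and 173 counts, and the sources used here do not say how reads of the overlap were assigned. Per length Jak1 stood at 45.0 times Jak3 in the knockout pool against 17.3 times in the wild-type one. Among the 7 other JAK and STAT genes 1 was lower, Stat4, at a log2 ratio of -1.10 on 255 against 557 counts, and 6 were neither. The other kinases Jak2 and Tyk2 stood at 0.00 and 0.43, and Stat6, the factor of the interleukin 4 receptor, was highest at 0.77.

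The STAT5 genes are neighbours on chromosome 11, 8627 bases apart, and encode near-identical proteins, and only Stat5a was called. Stat5a (ENSMUSG00000004043, chromosome 11, 100859351 to 100885169, plus strand) had 11168 counts in the knockout pool against 4721 in the wild-type one, or 105 CPM (103 to 107) against 43.7 CPM (42.5 to 45.0). Its log2 ratio was 1.26 (1.21 to 1.31). Stat5b (ENSMUSG00000020919, chromosome 11, 100780731 to 100850724, minus strand) had 11202 against 8041 counts, or 105 CPM (103 to 107) against 74.4 CPM (72.8 to 76.1), a log2 ratio of 0.50 (0.46 to 0.54). In the knockout pool the pair had nearly equal counts, and in the wild-type pool Stat5b had the larger one.

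The ratio of Stat5a to Stat5b in the knockout pool was 1.70 times that in the wild-type pool, whatever length is used for each gene. Per kilobase of exon it was 0.774 (0.754 to 0.795) in the knockout pool against 0.456 (0.440 to 0.473) in the wild-type one. Which of them is the more abundant in the knockout pool depends on the length chosen, since with the longest transcript of each the ratio was 1.31. The genes share sequence: of the 50-base stretches of Stat5a 8.21% also occur in Stat5b, and 608 of the 5535 of Stat5b also occur in Stat5a. Their longest shared run, from base 571 of both coding sequences (transcripts Stat5a-203 and Stat5b-202 of GENCODE M21, GRCm38), is 324 bases, so that a read of 50 bases inside it cannot be assigned. Its first 50 bases, equal in length to 1 read of this study, are printed to show what both genes hold.
Stat5a and Stat5b: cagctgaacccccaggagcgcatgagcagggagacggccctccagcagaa

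The feedback genes were both far higher in the knockout pool, and Cish had the largest ratio of the 10. Cish, an SH2 protein that binds cytokine receptors and blocks STAT5 docking (ENSMUSG00000032578, chromosome 9, 107296026 to 107302784, plus strand), had 8048 counts in the knockout pool against 608 in the wild-type one. This is 75.6 CPM (74.0 to 77.3) against 5.63 CPM (5.19 to 6.09), a 13.4-fold difference and a log2 ratio of 3.75 (3.63 to 3.87). Cish ranked 151 from the top among the 13833 genes. Its level per length passed 75.8% of the genes tested in the knockout pool against 22.7% in the wild-type one, so that it was scarce in the one and well expressed in the other.

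The window at the start of Cish, a gene long used as a readout of STAT5, holds 2 matches to TTCNNNGAA, 2 bases apart, as 0.457% of all windows hold at least 2. The stretch is from the plus strand of chr9:107296654-107296683 (GRCm38.p6), with the motifs in capitals; the first begins at the first base of the RefSeq transcript, which lies 633 bases inside the GENCODE gene.
Cish: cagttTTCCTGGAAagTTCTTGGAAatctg

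Annotated genes on the other strand of Cish had the same pattern. Gm17041 overlaps it over 1459 bases and had 3185 counts against 203, a log2 ratio of 3.99 (3.79 to 4.20). Gm17040 overlaps it over 1167 bases and had 291 against 20, a log2 ratio of 3.85 (3.23 to 4.62). The sources used here do not say whether counting used the strand, so their reads and those of Cish cannot be told apart.

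Socs2, a relative of Cish that also restrains growth hormone signalling (ENSMUSG00000020027, chromosome 10, 95385362 to 95417180, minus strand), had 661 counts in the knockout pool against 123 in the wild-type one. At 6.21 CPM (5.75 to 6.70) against 1.14 CPM (0.95 to 1.36) it was the rarest of the 10 per kilobase of exon in both pools. With the longest transcript as length Jak3 was the rarest in the knockout pool. The log2 ratio of Socs2 was 2.44 (2.17 to 2.74). Of the 50-base stretches of Socs2, 4.58% also occur in other genes, chiefly Gm9847. The other SOCS genes were not called. All 6 were tested, with log2 ratios from -0.75 for Socs6 to 0.51 for Socs5 and a median of -0.08. Socs1 and Socs3, which are also induced by cytokines, stood at 0.37 and 0.34, on 2226 against 1746 and 1390 against 1115 counts.

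**Figure D3:**
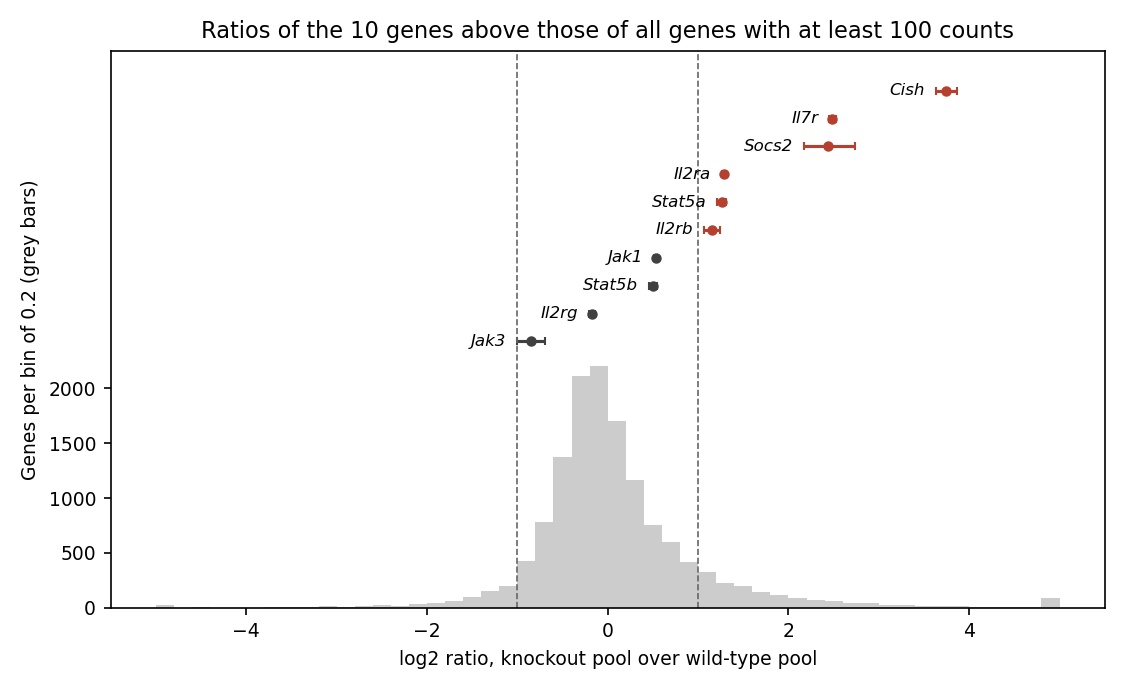
The log2 ratio of knockout over wild-type pool for the 10 genes (points, with exact 95% intervals for counting error; red where called higher) above the distribution for all 13833 genes with at least 100 combined counts (grey bars; ratios beyond 5 in size are in the outermost bars); dashed lines mark 2-fold. Of the 10 genes 6 lie beyond the upper line and none beyond the lower line, with Jak3 at -0.85 nearest to it.

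The authors' deposited table, from a DEGseq test, gave each of the 10 genes a Benjamini-Hochberg q far under 0.05, the largest being 8.51e-22 for Il2rg. That test compares these pools of reads, not the conditions, and it passed genes whose ratios were small, such as Il2rg.

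Ordered by level per kilobase of exon, the knockout pool ran from Il2ra (127 CPM per kilobase) through Il7r (68.2), Il2rg (49.3), Jak1 (42.0), Stat5b (19.0), Stat5a (14.7), Cish (11.8) and Il2rb (7.55) to Jak3 (0.93) and Socs2 (0.65). The wild-type pool ran from Il2rg (55.5) through Il2ra (52.1), Jak1 (29.0), Stat5b (13.4), Il7r (12.2), Stat5a (6.13), Il2rb (3.40) and Jak3 (1.68) to Cish (0.88) and Socs2 (0.12). Il7r stood 3 places higher in the knockout pool and Cish 2. Some neighbours change places with another gene length, namely Stat5a with Stat5b and Jak3 with Socs2 in the knockout pool, and Stat5b with Il7r in the wild-type pool. The place of Il2rg is uncertain because of the sequence it shares with Gm20489.

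Genes with the most similar pair of levels were sought as the shortest distance in the plane of log2 CPM of the 2 pools, over 13814 genes with counts in both. For Il7r these were Pkp4 (227 against 63.4 CPM, distance 0.51), Lgals1 (227 against 67.2 CPM) and Cd53 (213 against 84.0 CPM). For Il2ra they were Alas2 (755 against 300.1 CPM, distance 0.06), an enzyme of haem synthesis, then Tmsb4x and Gm20419. For Cish they were Ppic (62.5 against 5.31 CPM, distance 0.29), Syk and Ptpn13. With 1 value per pool this likeness rests on 2 numbers per gene.

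Other genes of the pathway were described in 10 lists holding 156 genes besides the 10. Of the 141 with at least 100 counts, 31 (22.0%) were higher, 3 (2.13%) were lower and 107 were neither, against 11.2% and 5.36% of all genes. Their median log2 ratio was 0.23. The lists were made with earlier results of these data known, so these counts are descriptions.

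Among 18 tested receptor chains of related cytokines 7 were higher and 1 was lower, where 11.2% of all genes were higher and 5.36% lower. The higher ones included Il13ra1 (2.37), Lifr (2.13), Il6ra (1.69), Csf3r (1.17) and Il10ra (1.14). Csf2rb (1.02) and its near-identical copy Csf2rb2 (1.89), the chains of the interleukin 3 family, may share reads and are uncertain. Il9r, which like Il7r pairs with Il2rg, was lower at -1.10 on 1134 against 2462 counts. The other partners of Il2rg were not called: Il4ra stood at 0.51, Il21r at 0.21 and Il15ra at -0.27, and Crlf2, which pairs with Il7r for Tslp, at -0.68. Il4ra and Il21r thus had higher values in the knockout pool that did not reach 2-fold, and a difference between the chains was not tested.

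Known STAT5 target genes had a median log2 ratio of 0.80, against -0.07 over all genes. Of 21 tested, 8 were higher, none was lower and 13 were neither, where 11.2% of all genes were higher and 5.36% lower. The highest, on 4335 against 322 counts, was the gene that the table lists as Gm17004 and GENCODE M21 as Tcrg-C1, a constant segment of the T cell receptor gamma chain, at 3.77 (3.61 to 3.94). The cell cycle genes Ccnd2 (1.28) and Cdkn1a (1.31), the inhibitor Id2 (1.52) and the cytokines Osm (1.26) and Lta (1.30) were higher as well. So were Prf1 (2.27) and Gzmb (2.14), which are also markers of NK and cytotoxic cells. The survival and growth targets were not called: Bcl2 stood at -0.14, Mcl1 at -0.04, Bcl2l1 at 0.68, Pim1 at 0.88 and Myc at 0.28. Bcl6, which STAT5 is known to repress, was lowest at -0.48.

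Known regulators of Il7r transcription lay on both sides of 0, with 10 of 21 above it and a median log2 ratio of -0.06. Of these genes 2 were higher, Runx3 (1.27) and Bach2 (1.21), and 1 was lower, the glucocorticoid receptor gene Nr3c1 (-1.24 on 8780 against 20987 counts). Both counts are near the shares of all genes, 11.2% higher and 5.36% lower, so these are single values. Foxo1, an activator of Il7r in lymphocytes, stood at -0.38, the repressor Gfi1 at -0.66 and Notch1, whose reads cannot be split from those of the transgene, at -0.22. Genes known as Foxo1 targets were higher in 6 of 12 cases, among them Ccr7 (2.64), Btla (2.23), S1pr1 (2.03), Rag1 (1.60) and Rag2 (1.09). The other 6 were neither, down to Bcl2l11 at -0.70, and the median of the list was 0.94.

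The branches that leave these receptors beside STAT5 held a few called genes each, where 11.2% of all genes were higher and 5.36% lower. In the PI3K-Akt branch 4 of 20 genes were higher and none was lower. Of these, Pik3r5 (1.42) and Irs2 (1.04) carry the signal, while Inpp5d (1.30) encodes a phosphatase that acts on the lipid Akt needs; Tsc1 was lowest at -0.58. Among 19 adaptor and Ras-MAPK genes 2 were higher, the kinase Syk (3.42 on 6567 against 622 counts) and the docking protein gene Gab1 (2.08), and Grb2 was lowest at -0.41. Of 17 further brakes on signalling 2 were higher, the MAP kinase phosphatases Dusp4 (2.07) and Dusp6 (1.56), and Usp18 was lowest at -0.89. For the adaptors and for the brakes the higher share is near that of all genes, so these are single values and no pattern of the lists.

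**Figure D4:**
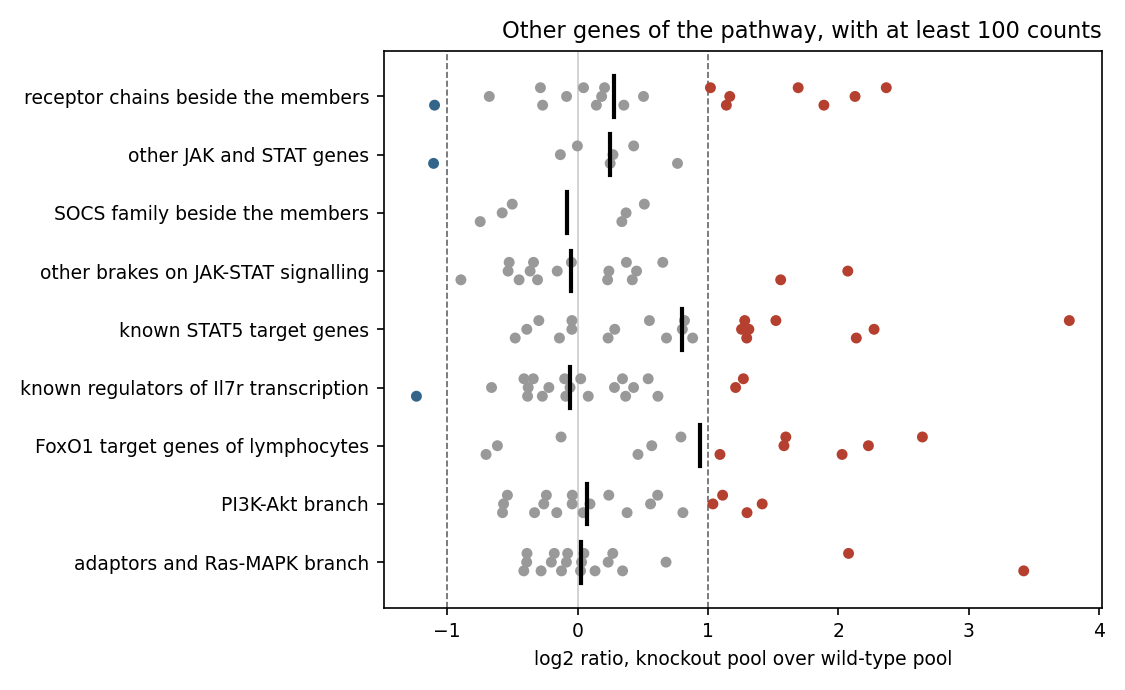
The log2 ratio of each gene with at least 100 combined counts in 9 lists of the pathway (points; red called higher, blue called lower, grey neither), with the median of each list as a black line and 2-fold as dashed lines. The medians of the STAT5 target list (0.80) and the Foxo1 target list (0.94) lie farthest to the right, and the SOCS family has no coloured point.

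Markers of several other cell types differed between the pools as well, and Il2ra, Il2rb and Il7r are also expressed by some of these cells. Of all genes 11.2% were higher and 5.36% lower. The B cell and dendritic cell lists, each with 1 of 7 tested markers higher, were near those shares. Macrophage and monocyte markers were higher in 10 of 11 cases, with summed levels of 355 CPM in the knockout pool against 105 CPM in the wild-type one. NK and cytotoxic markers, whose cells carry Il2rb, were higher in 6 of 8 tested cases; their summed levels of 237 against 247 CPM were mostly Gzma (193 against 236 CPM), and the defining NK receptor gene Ncr1 had 14 against 4 counts. Early thymocyte markers, whose cells carry Il2ra and Il7r, were higher in 6 of 10 cases, Il2ra itself included, with a median of 1.19, while their summed levels without Il2ra were 1166 against 1274 CPM.

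Regulatory T cell markers, whose cells carry much Il2ra, were higher in 2 cases, lower in 3 and neither in 5, and Foxp3 had 934 against 1165 counts. Group 2 innate lymphoid markers, whose cells carry Il7r, were higher in 4 of 6 tested cases (221 against 107 CPM summed), with Areg at 2 against 0 counts. B cell progenitors also carry Il7r; of 7 tested B cell markers 1 was higher (Rag1, shared with T cells) and 1 lower (Pax5), and Cd79b, at 0.98, was also called higher with TMM scaling (1.06). The progenitor marker Vpreb1 had 16 counts in each pool and Vpreb2 had none. The general T cell markers had a median of -0.31, with none of 10 higher and 1 lower, Thy1, a call that ended with TMM scaling (-0.98). Erythroid (3 of 9 higher; 23895 against 11818 CPM summed), neutrophil (3 of 10; 2521 against 2076), megakaryocyte (4 of 7; 44.3 against 20.9), stromal (4 of 8, and 1 lower; 129 against 155) and dendritic cell markers (1 of 7; 24.0 against 32.1) made up the rest, and Hbb-b1 of the erythroid list (1.00) was also called higher with TMM scaling (1.08).

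The summed level of these 12 lists in the knockout pool was between 0.748 and 3.37 times that in the wild-type pool. These sums rest largely on single abundant genes, such as Gzma for NK cells and Rag1 (170 against 56.2 CPM) for B cells. Single markers had log2 ratios above the 2.49 of Il7r and the 2.44 of Socs2. Among them were Ccr2 of monocytes (4.98, above the 3.75 of Cish), Ctla4 (3.44), Erg (3.19), Cxcl12 (2.92), Fasl (2.87) and Ppbp (2.66). Other markers of the lists of Ctla4 and Cxcl12 went the other way, such as Gpr83 (-3.57 on 124 against 1495 counts) and Pdgfrb (-1.48). All of these were chosen after their values were seen. The part of other cells in these ratios was not tested.

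**Figure D5:**
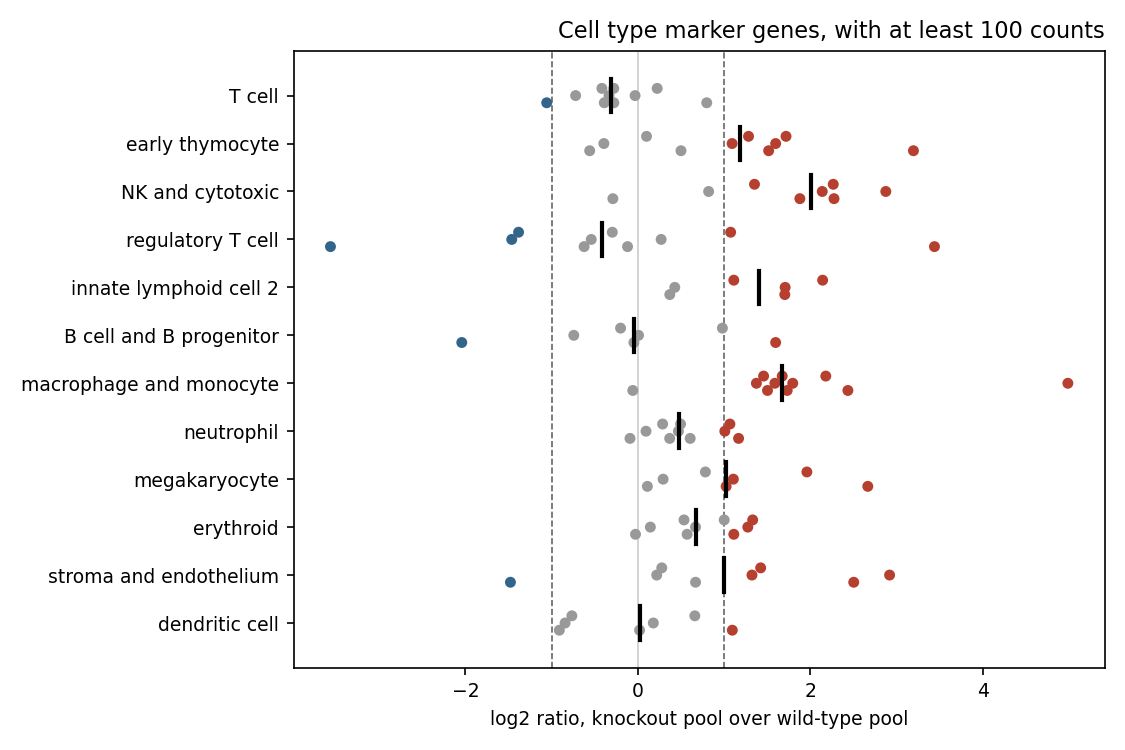
The log2 ratio of marker genes of 12 cell types with at least 100 combined counts (points; red called higher, blue called lower, grey neither), with the median of each list as a black line and 2-fold as dashed lines. Macrophage and NK markers have medians of 1.67 and 2.01 and T cell markers of -0.31.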

How the data were processed

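Per the labels' protocols, poly(A) RNA was made into strand-marked libraries and read as single reads of 50 bases; ribosomal depletion is named in the design text as another choice. Base calling used CASAVA and alignment TopHat on mm9, per the submitters' processing notes, without versions. The sources used here name no counting tool, annotation or strand setting. The deposited table holds whole read counts in 2 columns, taken as the knockout pool and the wild-type pool from the order in its title; the sources used here do not say which samples entered each pool, and Kdm6a was checked against that order. The authors' deposited log2 fold changes were used as a check; the z score of the authors' DEGseq test was not used, and its deposited p-values and q-values were used where named. Of the 37224 rows 13843 had no value in either pool.

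CPM and log2 ratios (pseudocount 0.5 counts, column totals as depth) were computed with Python 3.11.15, scipy 1.17.1 and, for TMM and upper quartile scaling, edgeR 4.0.16. Intervals are exact and cover counting error only; reads without molecular identifiers are not independent molecules. Replicates are pooled, so no leave-one-out or other test over samples was run, and the columns with per-sample values numbered 0. Exon lengths (union of exons), places and overlaps came from GENCODE M21 (GRCm38), matched by Ensembl identifier, and the authors' own gene models may differ. Named genes were the 10 members, the highest and lowest and all called genes of each list, and the 3 nearest genes, of which a few list genes are not reported here by name; further list members were named for their known role, after their values were seen. The members, lists and within-pool ratios were chosen with earlier results of these data known. The method was run on simulated counts that held counting error only, so that run says nothing about spread between animals. Promoter windows came from RefSeq (GRCm38.p6).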

Additional observations from a re-analysis of the deposited data

How the results depend on the processing

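Another scaling shifts every log2 ratio by the same amount: by 0.08 with TMM, 0.07 with the median of ratios, 0.09 with a total that leaves out mitochondrial and haemoglobin genes, and by -0.0011 with the upper quartile. No gene of the 10 changed sign or call under these or with a pseudocount of 5, and the median over the 10 was 1.29 with TMM and 1.29 without mitochondrial and haemoglobin genes. The median over all genes changed sign, from -0.07 to 0.01 with TMM. With a 3-fold minimum 3 of the 10 were higher (Cish, Il7r and Socs2). So were 822 of all 13833 genes (5.94%) and 14 of the 141 other pathway genes. At that minimum 307 of all genes and 0 pathway genes were lower. With a 1.5-fold minimum 6 of the 10 were higher and 1 was lower (Jak3). Of all 13833 genes 2617 were then higher and 2037 lower, and 9 of the 141 pathway genes were lower. With a minimum of 20 counts 2330 genes were higher and 1495 lower, and 5 pathway genes were lower. With a minimum of 1000 counts 588 were higher and 264 lower, and 5 of the 10 were higher, since Socs2 has 784 combined counts. The number of genes that reach either minimum is not given here, so these counts cannot be read as shares. The authors' q in place of the interval left 6 of the 10 higher, beside 1556 of all 13833 genes. With the longest transcript as length, 4 of the 10 changed place by level in the knockout pool against 2 in the wild-type one, and Stat5a stood at 1.31 and 0.773 times Stat5b. Counting only bases before the RefSeq start, 7.02% of windows held TTCNNNGAA, and 1 of the 10 genes (Il7r). The pathway lists' settings, the Stat5a ratio and the members' motif count were added after seeing the data. No paired analysis was possible because the table holds 1 pooled column per genotype; leaving out a replicate was not possible for the same reason. Depth limits Socs2 and Jak3 most, whose intervals were the widest of the 10.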

Other observations

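The genes beside the 10 on their chromosomes were also looked at, taking the nearest protein-coding gene with at least 100 counts on each side. There were 18 such neighbours, with a median log2 ratio of 0.14; 2 were called higher and 1 lower, shares near the 11.2% and 5.36% of all genes, so the values below are single values and no pattern of the neighbours. Spef2, 48017 bases beyond Il7r and known for its role in sperm tails, was higher at 2.87 (2.63 to 3.12) on 1160 against 161 counts, a ratio larger than that of Il7r, while Capsl on the other side stood at 0.75. Ptrf, beyond Stat5a, was higher at 1.86 on 359 against 100 counts. The neighbours of Cish, Mapkapk3 and Hemk1, stood at 0.91 and 0.96, and Hemk1 passed 2-fold with TMM scaling (1.04), as did Ghdc beside Stat5b (1.05), so that 4 neighbours were then higher. The neighbours of Il2ra stood below zero, Rbm17 at -0.99 and Il15ra at -0.27. Gm614, 386 bases from Il2rg, was lower at -1.28 on 29 against 72 counts.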
